A study of Thermothelomyces thermophilus with 14 samples.

Results

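In wild-type mycelium of the thermophilic fungus Myceliophthora thermophila, 4 of the 9110 genes measured met a limit on level, given below, and a limit on change. They were lower by a margin of at least 3 times in all libraries with xylobiose, alone or mixed with cellobiose. The comparison was with all libraries with no carbon source, with cellobiose or with glucose plus xylose. The 4 genes are MYCTH_2295346, MYCTH_61507, MYCTH_2308079 and MYCTH_2308284. They were chosen on measured values: the lowest of the 6 libraries without xylobiose had to be at least 10 CPM (read counts scaled to a common library size, after TMM correction of the totals for composition) and at least 3 times the highest of the 4 libraries with xylobiose, the latter taken as no less than 0.5 CPM. The rule also leaves out MYCTH_2310145 and MYCTH_95427, whose ratios of 0.317 and 0.295 would not have met it. All 4 genes passed the filter on low counts.

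The strain was ATCC 42464 in every library, and pregrown mycelium was moved for 4 h into Vogel's salts with a defined carbon source. In plates, cultures of 5 mL held no carbon (NoCarbon2), 2% cellobiose (G2), 2% xylobiose (X2), 2% of each disaccharide (G2X2), or 1% glucose with 1% xylose (GX). Flasks of 100 mL held 2% xylan (Xylan), or 1% xylan with 1% Avicel, which is microcrystalline cellulose (XA). Each of the 7 groups had 2 libraries, with 17992946 to 25254924 counts in genes per library. Whether the 2 libraries of a group were grown separately is not in the labels; p-values here cover the spread between them, which may be technical only. The TMM factors moved with the groups: they were 1.13 to 1.20 in the 6 plate libraries without xylobiose, 0.733 and 0.859 in X2, 0.967 and 0.978 in G2X2 and 0.825 to 1.01 in the flasks. Their part in the results was tested only through the other scalings. With no scaling beyond the total, the rule held for 9 genes, the 4 among them. Whole mycelium was sampled, so fewer cells expressing a gene and less of its RNA per cell cannot be told apart.

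Xylan is the main hemicellulose of many plant cell walls, a chain of xylose units that fungi cut outside the cell into short pieces. Xylobiose, a pair of linked xylose units, is one of these pieces, as cellobiose, a pair of linked glucose units, is for cellulose. In filamentous fungi such short sugars act as signals that switch on the enzymes for the matching polymer, while easily used sugars such as glucose often lower the expression of genes that serve the use of other carbon sources or starvation. Here the 4 genes were chosen for lower values with xylobiose. The reference gene table gives none of the 4 loci a symbol or a product, so no role can be stated for them, and no sequence of them is given here.

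MYCTH_2295346 had the widest gap between the sides. It stood at 699 and 754 CPM without carbon, 185 and 183 CPM with cellobiose, and 131 and 174 CPM with glucose plus xylose. With xylobiose it stood at 29.4 and 14.3 CPM, and in the mixture at 28.3 and 14.1 CPM. The lowest library without xylobiose was thus 4.45 times the highest with it, and the mean without carbon was 33.3 times that in X2 and 34.3 times that in G2X2. The X2 and G2X2 libraries spread over the same interval.

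MYCTH_61507 was at 3102 and 3439 CPM without carbon, 2108 and 2013 CPM with cellobiose, and 1780 and 2162 CPM with glucose plus xylose. It stood at 406 and 366 CPM in X2 and at 172 and 147 CPM in G2X2. The X2 and G2X2 libraries did not overlap, the mixture being the lower. The ratio of the sides was 4.38, and the mean without carbon was 8.48 times that in X2 and 20.5 times that in G2X2.

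MYCTH_2308079 had the fewest counts. It was at 43.4 and 49.8 CPM without carbon, 19.7 and 22.5 CPM with cellobiose, and 12.2 and 23.2 CPM with glucose plus xylose, against 3.16 and 2.23 CPM in X2 and 2.44 and 3.37 CPM in G2X2. The low values rest on 58 and 33 counts in X2 and on 49 and 68 counts in G2X2. The ratio of the sides was 3.62, set by the first GX library. The mean without carbon was 17.3 times that in X2 and 16.0 times that in G2X2.

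MYCTH_2308284 was at 464 and 893 CPM without carbon, 267 and 340 CPM with cellobiose, and 420 and 475 CPM with glucose plus xylose. It was at 79.8 and 86.1 CPM in X2 and at 32.4 and 21.2 CPM in G2X2, and here too the mixture lay below xylobiose alone. With a ratio of 3.10 it was the member nearest to the limit. It was also the one whose 2 libraries without carbon lay farthest apart, and 1 of them was inside the GX range.

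**Figure D1:**
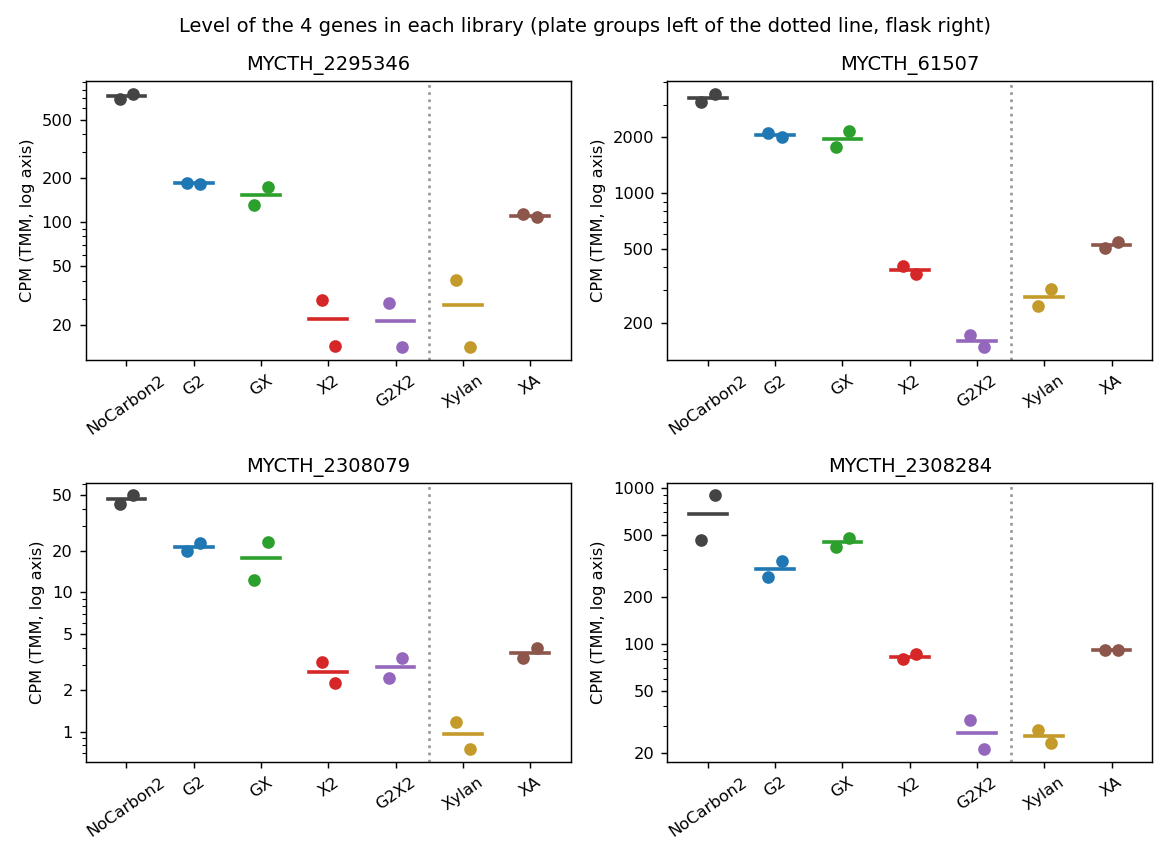
Level of each of the 4 genes in all 14 libraries, in CPM on a log axis; points are libraries, bars are group means (n = 2), and the dotted line separates plate from flask groups. In every panel NoCarbon2 has the highest mean and XA the fourth highest of 7, and X2, G2X2 and Xylan take the 3 lowest places.

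The genes just outside it were MYCTH_2298375, with a lowest value of 43.0 CPM without xylobiose against a highest of 14.9 CPM with it (ratio 2.90), MYCTH_2313040 (741 against 329 CPM, ratio 2.25) and MYCTH_2305739 (10.6 against 4.90 CPM, ratio 2.16). With the same limit of 10 CPM, a ratio of at least 1 was met by 327 genes, of at least 1.5 by 28 genes, of at least 2 by 11 genes, of at least 4 by 2 genes and of at least 5 by 0 genes. The opposite rule, with X2 and G2X2 above all other plate libraries by the same margins, was met by 13 genes. Leaving out 1 of the 10 libraries, with CPM kept as they were, can only add genes to the rule and cannot lose a member. It added 0 to 2 genes, the most without X2 replicate 1, where MYCTH_2298375 and MYCTH_2305739 came in.

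**Figure D2:**
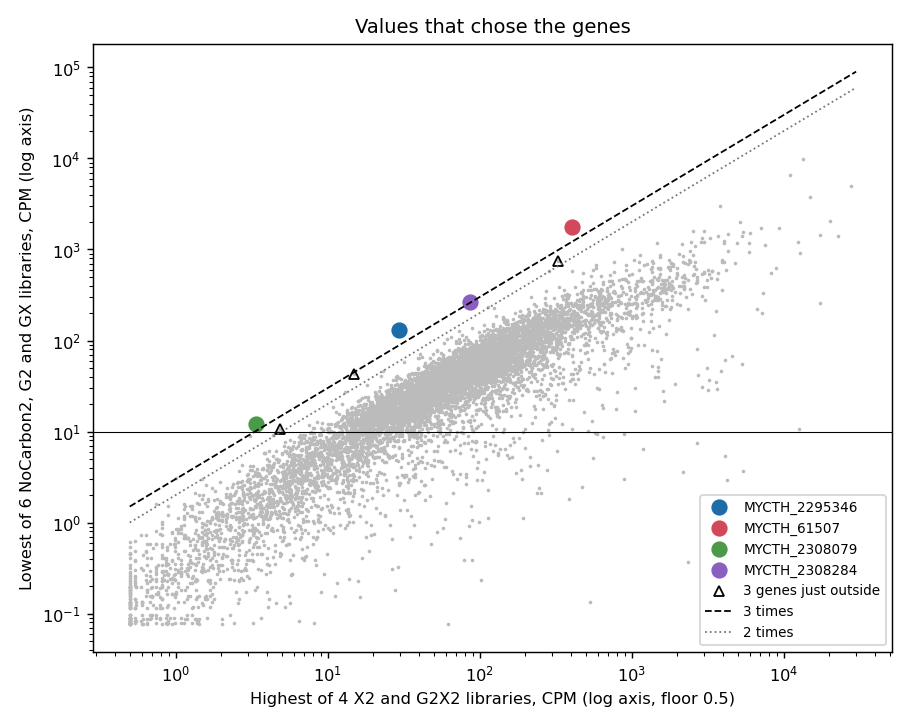
For each gene, the lowest of the 6 NoCarbon2, G2 and GX libraries (vertical) against the highest of the 4 X2 and G2X2 libraries (horizontal, floor 0.5 CPM), both in CPM on log axes; the dashed line marks 3 times, the dotted line 2 times and the horizontal line 10 CPM. The 4 coloured members lie above the dashed line and the 3 triangles just outside it; 659 genes with a lowest value of 0.05 CPM or less are not drawn.

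The flask cultures took no part in the choice of the genes and asked how they behave when cellulose replaces part of the xylan. Xylan was at 2% in Xylan and at 1% in XA, so added cellulose and less xylan cannot be told apart. All 4 genes rose in XA relative to Xylan (edgeR quasi-likelihood test, Benjamini-Hochberg adjusted p under 0.05), where 14.8% of the 8567 genes tested were called higher and 17.1% lower. The median log2 change was 1.89 over the 4 genes and 0.01 over all genes tested. MYCTH_2295346 went from 690 and 280 counts in the Xylan libraries to 2876 and 2321 counts in XA, or from 27.1 ± 18.6 to 111 ± 3.65 CPM (mean ± SD, n = 2), a log2 fold change of 2.03 ± 0.46 (SE; edgeR adjusted p = 0.0066). MYCTH_2308079 went from 1.17 and 0.75 CPM, which are 20 and 15 counts, to 3.38 and 4.00 CPM, or 86 counts in each XA library (1.95 ± 0.39; edgeR adjusted p = 0.00272). The libraries of the 2 media overlapped for none of the 4 genes. Since the share of all genes without overlap was not counted, nothing is drawn from this.

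MYCTH_2308284 showed the tightest XA values, 92.0 and 91.5 CPM, against 28.1 and 23.2 CPM in Xylan (1.84 ± 0.29; edgeR adjusted p = 0.000766). MYCTH_61507 rose least, from 248 and 304 CPM to 508 and 548 CPM (0.93 ± 0.19; edgeR adjusted p = 0.00308), and its 95% interval ran from 0.53 to 1.34. Each of the 4 calls held when any of the 4 flask libraries was left out. The change of MYCTH_2295346 then ran from 1.44 without Xylan replicate 2 to 2.999 without Xylan replicate 1, since its Xylan libraries differed most.

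Of the 7 further genes that met a ratio of 2, 2 rose in XA, 1 fell and 4 were not called, with a median log2 change of 0.72. The difference between these genes and the 4 members was not tested.

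**Figure D3:**
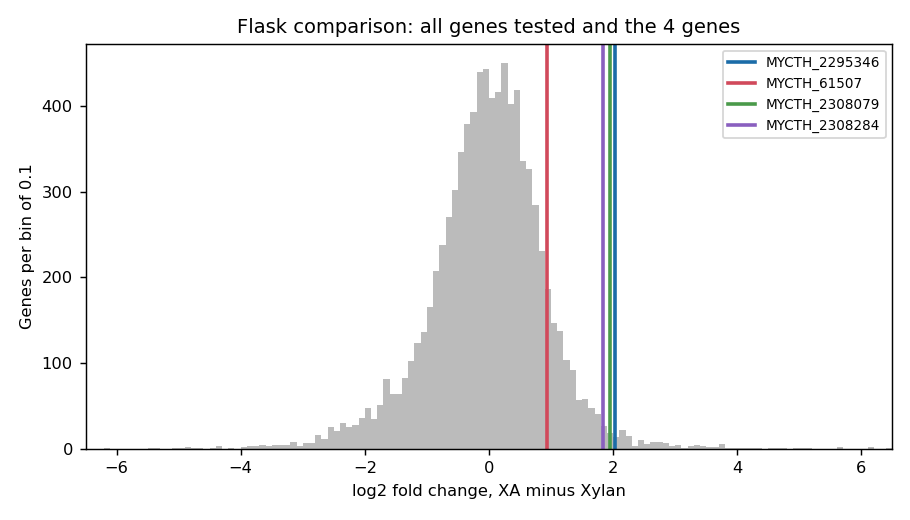
Distribution of the log2 fold change of XA minus Xylan over all 8567 genes tested (grey, genes per bin of 0.1), with a coloured line for each of the 4 genes. The lines lie at 0.93, 1.84, 1.95 and 2.03, all to the right of the median of 0.01.

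Set beside the plates, the Xylan flasks held the 4 genes at low values. Both Xylan libraries were at or below the highest library with xylobiose for MYCTH_61507, MYCTH_2308079 and MYCTH_2308284, and for MYCTH_2295346 1 of the 2 was above it. The 2 XA libraries lay between the sides for all 4 genes: above each library with xylobiose, and below each of the plate libraries without it. For MYCTH_2308079 that margin was small, with 3.38 CPM in XA against 3.37 CPM in G2X2. How often XA lay between the sides over all genes was not counted. For the 4 members the rule itself set a gap of at least 3 times between the sides. Averaged over all 4 flask libraries, the genes stood at 8.17% (MYCTH_2308079) to 19.4% (MYCTH_2295346) of their own mean over NoCarbon2, G2 and GX. Vessel, volume and carbon source differ together between flasks and plates, so their parts in these levels cannot be told apart.

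The label of lowering by xylobiose leaves out a step that the rule did not ask for: most of the 4 genes were also lower with the other sugars than with none. The G2 and NoCarbon2 libraries also chose the genes, though the rule set no direction between them. The p-values here, and below for GX versus NoCarbon2, G2 versus GX and G2X2 versus X2, are thus not independent of that choice. With cellobiose all 4 fell against NoCarbon2 (edgeR, adjusted p under 0.05), where 14.2% of all genes tested were called lower. The median log2 change was -1.15 over the 4 genes and 0.01 over all genes. MYCTH_2295346 fell most, to 184 ± 1.11 from 726 ± 38.7 CPM (mean ± SD, n = 2; log2 fold change -1.98 ± 0.46 SE, edgeR adjusted p = 0.0073). MYCTH_2308284 and MYCTH_2308079 changed by -1.16 ± 0.29 and -1.14 ± 0.31, and MYCTH_61507 by -0.67 ± 0.19 (edgeR adjusted p = 0.0201). For each gene both G2 libraries were below both NoCarbon2 libraries. Here too the share over all genes was not counted, so nothing is drawn from it. The calls were not stable to single libraries: 1 gene was called without NoCarbon2 replicate 2 (MYCTH_2295346), 0 without G2 replicate 1 and 1 without G2 replicate 2 (MYCTH_2308284), while all 4 were called without NoCarbon2 replicate 1. The change of MYCTH_2308284 was -0.61 without NoCarbon2 replicate 2 and -1.56 without NoCarbon2 replicate 1.

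Glucose with xylose, the monosaccharides of the 2 polymers, was set against no carbon too, in a comparison that shares its NoCarbon2 libraries with the one before. Of the 4 genes 3 fell, where 13.1% of all genes tested were called lower, and the median log2 change was -1.06 against -0.02 over all genes. MYCTH_2295346 changed by -2.25 ± 0.46 (edgeR adjusted p = 0.00422), MYCTH_2308079 by -1.39 ± 0.31 and MYCTH_61507 by -0.73 ± 0.19. MYCTH_2308284 was not called (-0.60 ± 0.28, 95% interval -1.21 to 0.01, edgeR adjusted p = 0.143), and its GX and NoCarbon2 libraries overlapped. Its value rested on the spread without carbon, being -0.05 without NoCarbon2 replicate 2 and -0.997, and called, without NoCarbon2 replicate 1. Without GX replicate 1 none of the 4 was called, with edgeR adjusted p of 0.0506 to 0.413, and MYCTH_61507 was not called without NoCarbon2 replicate 2 (edgeR adjusted p = 0.0517).

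Cellobiose and glucose plus xylose were then compared directly, at 2% total sugar each. None of the 4 genes was called by edgeR, where 10.5% of all genes tested were called in either direction, and none had an unadjusted p under 0.05. By the DESeq2 Wald test 0 were called as well, but with only the 2 groups compared in the edgeR fit MYCTH_2308284 was called lower in G2 (-0.60, adjusted p = 0.0373). The intervals leave room for differences: -0.34 to 0.47 for MYCTH_61507, -0.69 to 1.23 for MYCTH_2295346, -0.41 to 0.92 for MYCTH_2308079 and -1.17 to 0.05 for MYCTH_2308284 on the log2 scale. The libraries of MYCTH_61507 and MYCTH_2308079 overlapped, both G2 libraries of MYCTH_2295346 lay above both GX libraries, and both G2 libraries of MYCTH_2308284 lay below.

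**Figure D4:**
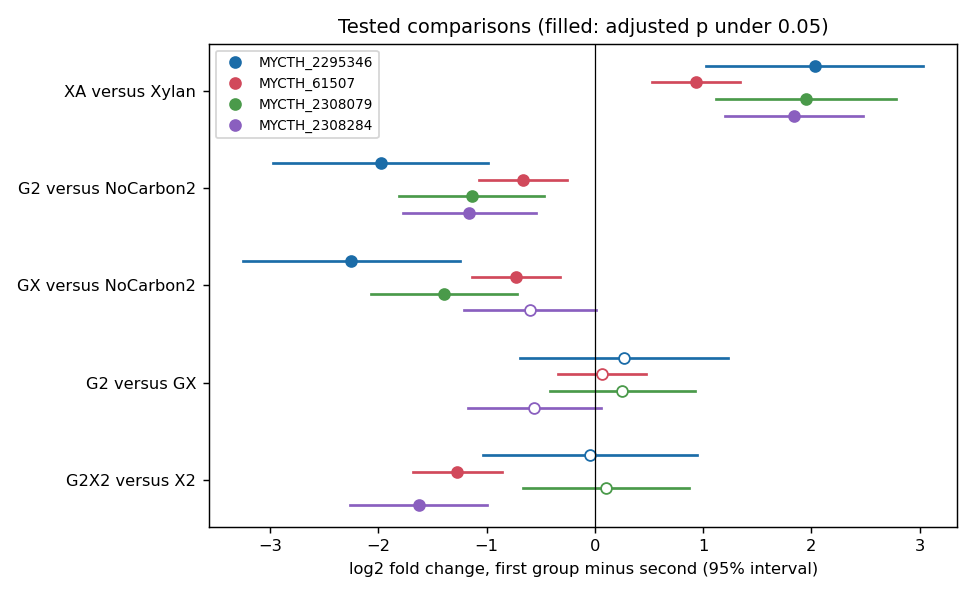
Log2 fold changes of the 4 genes in the 5 comparisons tested, first group minus second, with 95% intervals from the edgeR fit; filled points have an adjusted p under 0.05. The points lie right of 0 for XA versus Xylan and left of 0 for both comparisons with NoCarbon2, and for G2X2 versus X2 the filled points lie left of 0 and the open ones near 0.

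The mixture was then set against xylobiose alone. MYCTH_61507 and MYCTH_2308284 were lower in G2X2 than in X2, where 15.4% of all genes tested were called lower. The log2 changes were -1.27 ± 0.19 (edgeR adjusted p = 0.000619) and -1.63 ± 0.29 (edgeR adjusted p = 0.00189), and both calls held when any of the 4 libraries was left out. MYCTH_2295346 and MYCTH_2308079 were not called, with intervals of -1.04 to 0.94 and -0.67 to 0.87 around -0.05 and 0.10. Whether they differ from the called genes was not tested, and the interval of MYCTH_2295346 overlaps that of MYCTH_61507 (-1.68 to -0.86). Their signs changed with single libraries: MYCTH_2295346 ran from -0.64 without G2X2 replicate 1 to 0.58 without X2 replicate 1, and MYCTH_2308079 at -0.15 without G2X2 replicate 2. The median log2 change over the 4 genes was -0.66, against 0.01 over all genes. G2X2 held 2% of each sugar and so more sugar in all than X2, and the part of the added amount was not tested.

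Side by side, cellobiose without xylobiose (G2 minus NoCarbon2) and cellobiose with xylobiose (G2X2 minus X2) thus gave -0.67 and -1.27 for MYCTH_61507 and -1.16 and -1.63 for MYCTH_2308284. For MYCTH_2295346 the values were -1.98 and -0.05, and for MYCTH_2308079 -1.14 and 0.10. The difference within each of these pairs was not tested, since it is built from the contrasts that chose the genes. In the flasks, where cellulose took the place of part of the xylan, MYCTH_61507 and MYCTH_2308284 had moved the other way (0.93 and 1.84). The xylan dose was lower in XA than in Xylan, whereas the xylobiose dose was the same in G2X2 and X2, so the 2 comparisons are not matched.

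The rule fixed that NoCarbon2, G2 and GX stand above X2 and G2X2 in each gene, so of the order of the group means it left free the order within each side and the places of Xylan and XA. NoCarbon2 was highest for all 4 genes, G2 and GX came next, and then XA. X2, G2X2 and Xylan held the last 3 places in differing order. Among the 7 further genes that met a ratio of 2, the highest of NoCarbon2, G2 and GX was NoCarbon2 in 5, G2 in 1 and GX in 1. The share of all genes with the members' order was not counted. Relative to each member's mean without carbon, G2 stood at 25.4% to 63.0%, GX at 21.0% to 65.9% and XA at 7.93% to 16.1%. X2 stood at 3.005% to 12.2%, G2X2 at 2.92% to 6.23% and Xylan at 2.06% to 8.44%. MYCTH_2295346 showed the steepest first step, with G2 and GX at 25.4% and 21.0%, and MYCTH_61507 kept 63.0% and 60.3% there.

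The genes most like the members were sought by the root-mean-square difference from the mean profile of the 4 genes, in log2 group means, each centred, over the 7 groups. This measure was set after values had been seen. The members' own distances of 0.30 to 0.50 say nothing about the set, since the rule used 5 of the 7 groups and each member is part of the mean. The median over 8567 genes was 1.69, and the nearest other genes were MYCTH_117146 (0.57), MYCTH_2313040 (0.58) and MYCTH_2297595 (0.61). MYCTH_117146 had means of 1295 CPM in NoCarbon2, 238 in G2, 307 in GX, 77.9 in X2, 91.2 in G2X2, 61.0 in Xylan and 160 in XA, and missed the rule with a ratio of 2.08. MYCTH_2297595 met the ratio (3.06) but was below the 10 CPM limit, with means of 4.71 CPM in G2 and 5.599 CPM in GX.

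The 4 genes did not lie near one another. In the gene order of the RefSeq table for assembly ASM22609v1, used only for names and neighbours as the authors' build is unknown here, the closest 2 on a shared chromosome were 147 gene places apart. Among the 14 genes within 2 places of a member that were in the count table, 0 were members, and 6 were at 10 CPM or more in all 6 libraries without xylobiose. Of these 6, 1 had a ratio of at least 2: MYCTH_75351, next to MYCTH_61507, with 585 CPM as its lowest value without xylobiose and 286 CPM as its highest with it (ratio 2.05). In the flasks 4 of the 14 were called, 2 in each direction, where 14.8% of all genes tested were called higher and 17.1% lower. The neighbours were thus called about as often as all genes. MYCTH_2308084, 2 places from MYCTH_2308079, rose in XA (2.56, edgeR adjusted p = 0.000104), and so did MYCTH_2295338, 2 places from MYCTH_2295346 (1.89, edgeR adjusted p = 0.0162). MYCTH_75351 fell in XA (-0.78, edgeR adjusted p = 0.026), where MYCTH_61507 rose. The neighbour of MYCTH_61507 on the other side, MYCTH_2311234, fell as well (-3.70, edgeR adjusted p = 0.000207) and had means of 20.7 CPM in NoCarbon2 and 103 CPM in X2, the other direction from the members. MYCTH_2295344, next to MYCTH_2295346, likewise had means of 118 CPM in NoCarbon2 and 773 CPM in X2.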

How the data were processed

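The authors deposited raw read counts for each gene. Per the submitters' processing notes, the tools were TopHat2 2.0.8b and HTSeq 0.13.5. Genome build, gene annotation and strandedness of the counting: not given in the sources used here. Reads of overlapping or antisense neighbours can therefore not be separated, and near-identical genes may share reads. Groups and replicates came from the sample titles; the XA group appears as AX in the count table. Of 9110 identifiers, 9087 matched a RefSeq locus tag.

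The analysis used edgeR 4.0.16 (R 4.3.3). filterByExpr (minimum count 10) kept 8567 genes; totals were scaled by TMM over these. A quasi-likelihood fit with 7 group means over all 14 libraries (7 residual degrees of freedom, robust) gave two-sided tests, adjusted by Benjamini-Hochberg over all genes; called means adjusted p under 0.05. Standard errors came from the fold change and its F statistic. The contrasts that chose the genes (X2 or G2X2 against NoCarbon2, G2 or GX) were not tested. Of the comparisons tested, only XA versus Xylan used libraries that took no part in the choice. DESeq2 1.42.0 was an alternative.

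The members, comparisons and the naming rule were chosen with earlier results of these data known. The rule names the members, the 3 genes nearest outside and genes beside a member; the genes with like profiles were named after their values were seen.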

Additional observations from a re-analysis of the deposited data

How the results depend on the processing

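The calls of XA versus Xylan kept direction and side of the threshold for all 4 genes under all 12 alternatives. For the flasks, the fit to the same experiment and the fit to only the 2 groups compared are the same fit. The calls of G2X2 versus X2 for MYCTH_61507 and MYCTH_2308284 also held under all 12. With only the 2 groups compared in the fit, 2 genes were lower in G2 and 1 in GX versus NoCarbon2, and 1 gene, MYCTH_2308284, was lower in G2 than in GX; the cause was not tested. Leaving out single libraries gave 0 to 4 genes lower in G2 and 0 to 4 in GX versus NoCarbon2. The values that changed sign were all uncalled. Without single libraries, G2 versus GX ran from -0.14 to 0.79 for MYCTH_2308079 and from -0.068 to 0.21 for MYCTH_61507, and G2X2 versus X2 from -0.64 to 0.58 for MYCTH_2295346 and from -0.15 to 0.39 for MYCTH_2308079. The rule found 9 genes with no scaling beyond the total, 11 at a fold of 2 and 0 at a fold of 5.

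The deviations of same-numbered libraries correlated across genes at -0.16 to 0.21 over 21 pairs of groups, above 0.1 in 2. The highest value was between NoCarbon2 and X2. What a true pairing would give is not known, and a pairing of single groups was not tested. With the replicate block, 4 genes were higher in XA, 4 and 3 lower in G2 and GX versus NoCarbon2, and 2 lower in G2X2 versus X2, the same numbers as without it. The counts over all genes moved more. They were 2731 for XA versus Xylan and 1203 to 2193 without single libraries, 2274 and 1150 to 2123 for G2 versus NoCarbon2, 2060 and 995 to 1960 for GX versus NoCarbon2, 899 and 219 to 504 for G2 versus GX, and 2572 and 1369 to 2790 for G2X2 versus X2. With only the groups compared they were, in that order, 3481, 1456, 1055, 2239 and 1170. MYCTH_2308079 is limited by depth, with 15 to 86 counts in the flask libraries.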
